A study of Mus musculus with 20 samples.

Results

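The regions described here are the stretches of open chromatin that were less accessible in Tcf4 cKO than in WT cells of the Nkx2.1 lineage and that carried Tcf4 in the Tcf4-tag line. They were selected on measured values: a region entered when its mean ATAC-seq value was lower in Tcf4 cKO than in WT by 1 or more on the log2 scale and when it overlapped a Tcf4 peak in both Tcf4-tag libraries by 1 bp or more. This gave 561 of 32120 regions in the consensus ATAC-seq table. The fall in accessibility and the presence of Tcf4 are therefore properties of the choice and are given as a description, without a test.

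Chromatin was profiled in GFP-positive cells sorted from the neocortex at postnatal day 7 or 8, with 2 libraries per group and 50000 cells per ATAC-seq or histone mark library. WT mice carried Nkx2.1-Cre and the reporter, and Tcf4 cKO mice carried floxed Tcf4 alleles with the same Cre and reporter. Both genotypes therefore held Nkx2.1-Cre, which drives recombination in cells descended from Nkx2.1-expressing progenitors, and only cells of that lineage were sorted. Tcf4 occupancy came from a further line, Tcf4-tag, in which a Flag/HA-tagged Tcf4 is expressed from the endogenous locus once Nkx2.1-Cre acts. These animals thus also held Nkx2.1-Cre, and the tag was limited to the Nkx2.1 lineage. They gave 2 anti-Flag Cut&Tag libraries of 200000 nuclei. Occupancy was thus measured in other animals than accessibility, and no Tcf4 library from Tcf4 cKO cells was analysed here.

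Tcf4 is a class I basic helix-loop-helix protein, or E protein. E proteins bind DNA as dimers, often with lineage-restricted partners such as Olig1 or Olig2, at the E-box, a short palindromic element, of which CANNTG is the general form. Among the assays, ATAC-seq reads open chromatin, H3K4me1 marks enhancers whether active or poised, H3K27ac marks active enhancers and promoters, and H3K27me3 marks Polycomb repression. In the perinatal cortex the Nkx2.1 lineage holds interneurons and oligodendrocyte precursors.

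The sequences below lie 50 bp to each side of the strongest Tcf4 summit in the 6 regions with the largest falls. They are shown because they are the sites where the loss of accessibility was greatest, and they are the plus strand of GRCm38, read 5′ to 3′ with each E-box in capitals.

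A630001G21Rik intron, chr1:85720344-85720444: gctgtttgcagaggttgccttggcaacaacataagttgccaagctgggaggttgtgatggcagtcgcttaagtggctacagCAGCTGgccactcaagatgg
Tspan9, upstream, chr6:128167177-128167277: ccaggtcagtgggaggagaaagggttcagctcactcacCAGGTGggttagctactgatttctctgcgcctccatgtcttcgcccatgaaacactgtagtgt
Pkdcc as nearest gene, intergenic, chr17:82901445-82901545: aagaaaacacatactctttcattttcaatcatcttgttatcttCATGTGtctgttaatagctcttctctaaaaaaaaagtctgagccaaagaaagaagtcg
Vps13b intron, chr15:35513801-35513901: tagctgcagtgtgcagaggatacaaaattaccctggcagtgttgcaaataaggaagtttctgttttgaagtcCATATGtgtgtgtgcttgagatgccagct
F13a1 intron, chr13:36941953-36942053: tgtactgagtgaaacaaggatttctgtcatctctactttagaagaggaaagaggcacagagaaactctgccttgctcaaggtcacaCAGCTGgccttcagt
Cspp1 promoter, chr1:10056562-10056662: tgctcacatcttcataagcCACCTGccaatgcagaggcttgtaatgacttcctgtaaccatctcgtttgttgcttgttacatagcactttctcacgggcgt

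Each of these 101-base stretches held 1 E-box, but the core differed. The A630001G21Rik and F13a1 sites held CAGCTG, the form with a GC core. The Tspan9 and Cspp1 sites held the same element, CAGGTG, read on opposite strands, and the Pkdcc and Vps13b sites held CATGTG and CATATG.

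The same window is given for the 5 regions whose nearest gene belonged to a list of oligodendrocyte lineage genes, since these are the sites beside genes of known role in that lineage.

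Zfp488, upstream, chr14:33997642-33997742: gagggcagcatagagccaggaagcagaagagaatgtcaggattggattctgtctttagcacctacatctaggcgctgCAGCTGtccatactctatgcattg
Enpp6 intron, distal site, chr8:47005640-47005740: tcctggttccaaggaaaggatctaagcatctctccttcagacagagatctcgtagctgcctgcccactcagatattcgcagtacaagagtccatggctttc
Bcas1 coding exon, chr2:170406724-170406824: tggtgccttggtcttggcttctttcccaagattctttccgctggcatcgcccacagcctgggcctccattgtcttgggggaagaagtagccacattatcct
Enpp6 intron, proximal site, chr8:46988733-46988833: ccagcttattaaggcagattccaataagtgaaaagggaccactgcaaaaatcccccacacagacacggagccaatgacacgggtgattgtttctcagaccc
Myrf intron, chr19:10232518-10232618: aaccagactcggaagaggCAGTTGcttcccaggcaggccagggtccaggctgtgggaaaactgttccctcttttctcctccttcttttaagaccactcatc

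The Zfp488 site held CAGCTG and the Myrf site CAGTTG, and the other 3 windows held no E-box within 50 bp of the summit. The largest number of CAGCTG elements within 75 bp of a summit was found at 8 regions, of which the one with the largest fall was a region at a start site of Sirt2, a deacetylase abundant in myelin. That stretch of 151 bases, picked after its content was counted, held 4 E-boxes, of which 3 were CAGCTG.

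Sirt2 promoter, chr7:28784080-28784230: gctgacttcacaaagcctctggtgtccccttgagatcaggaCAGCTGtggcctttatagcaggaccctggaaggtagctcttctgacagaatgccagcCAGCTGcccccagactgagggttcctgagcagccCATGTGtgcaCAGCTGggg

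Accessibility fell over a wide range of starting levels. The median WT value was 6.83 (log2 normalised reads, quartiles 6.31 and 7.51) and the median Tcf4 cKO value was 5.49 (quartiles 4.81 and 6.19). The median change was −1.32, and the change ran from −3.58 to −1.001. Falls from 1 to under 1.5 made up 371 of the regions, and 57 fell by 2 or more. The means used are 1 per genotype, so these values carry no error and no replicate number. The authors' own p-value and FDR were not part of the rule, so a region here need not pass them.

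**Figure D1:**
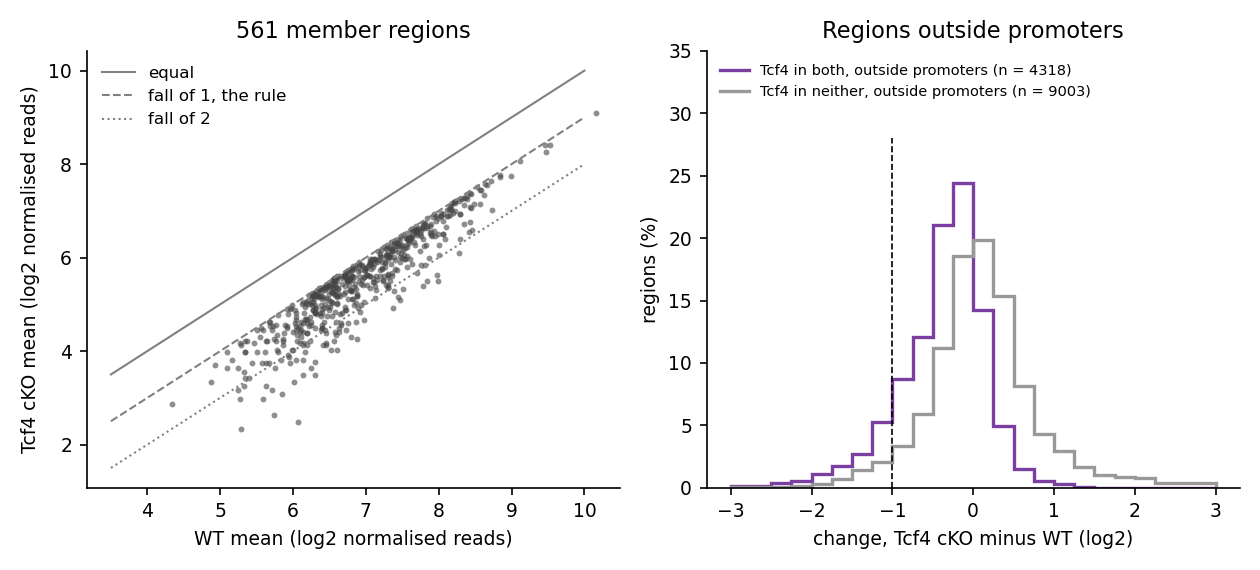
Left, WT mean against Tcf4 cKO mean (log2 normalised reads) for the 561 regions, 1 point each, with lines for no change, for the fall of 1 used by the rule and for a fall of 2. Right, distribution of the change in 0.25-wide bins for regions outside promoters with Tcf4 in both libraries (4318) or in neither (9003), with changes beyond −3 or 3 placed in the end bins; the Tcf4-bound curve lies further left and has almost no right tail.

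The 3 regions just inside the threshold changed by −1.003, −1.002 and −1.001 and lay nearest to LOC115490450, Gm10797 and Gm10941. The 3 Tcf4-bound regions just outside it changed by −0.9994, −0.9992 and −0.9983 and lay nearest to 4833413E03Rik, 4933433F19Rik and Gm26788, the last within Dst. Nothing in these values separates the regions on either side.

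Of all consensus regions, 4.18% fell by 1 or more and 37.1% held Tcf4 in both libraries. Outside promoters, 522 of 4318 regions with Tcf4 in both libraries fell (12.1%) and 17 rose by 1 or more (0.394%). Of the 9003 regions outside promoters with Tcf4 in neither library, 435 fell (4.83%) and 759 rose (8.43%). At promoters, 39 of 7592 Tcf4-bound regions fell (0.514%), against 44 of 2492 regions with Tcf4 in neither library (1.77%). Over promoters and other regions together the shares were 4.71% with Tcf4 in both libraries and 4.17% with Tcf4 in neither. The higher share at bound chromatin was thus seen outside promoters, and at promoters the order was the opposite.

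The starting level moved with these shares. Outside promoters, in the band with the lowest WT values, under 5.69, 29.2% of 130 bound regions fell against 5.03% of 3761 unbound regions. In the band with the highest WT values, above 7.11, 7.68% of 2708 bound regions fell against 1.93% of 622 unbound regions. The WT value is itself a term of the change, so these bands are a description only.

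Peak calls in single libraries came from the same ATAC-seq libraries as the means used by the rule, so they describe the selected regions and are no separate evidence. All 561 regions had an ATAC-seq peak in both WT libraries, 441 (78.6%) had one in Tcf4 cKO replicate 1 and 453 (80.7%) in replicate 2. The peak was lost, meaning listed by each WT library but by no Tcf4 cKO library, at 68 regions (12.1%), against 1.02% of all consensus regions. Most regions were therefore less open but still called as open. Where a peak was listed, its median fold enrichment over the local background was 8.28 and 9.27 in the WT libraries and 5.78 and 6.19 in the Tcf4 cKO libraries.

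Tcf4 lay close to the middle of these regions. The strongest Tcf4 summit was a median of 84.0 bp from the region centre, and in the 555 regions with a summit of each library inside, the libraries placed it a median of 73.0 bp apart. Reproducible Tcf4 peaks covered a median of 82.3% of a region. The median Tcf4 fold enrichment was 6.11 in Tcf4-tag replicate 1 and 5.94 in replicate 2, against 5.38 and 5.26 over all Tcf4-bound regions outside promoters. The quartiles overlapped widely, from 4.93 to 7.47 in replicate 1 for the falling regions and from 4.502 to 6.49 for all bound regions outside promoters. Tcf4-tag replicate 2 listed fewer peaks (16834) than replicate 1 (28606), so the requirement for both libraries rests mainly on replicate 2.

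Tcf4 enrichment and the size of the fall did not order the regions the same way. The median Tcf4 fold enrichment, averaged over the libraries, was 5.89 for falls under 1.5, 6.50 for falls from 1.5 to under 2 and 6.27 for falls of 2 or more. The 5 regions with the highest mean Tcf4 enrichment lay nearest to Tmco1, Hpf1, Lpp, Usp24 and Znrf1. Tmco1 encodes a calcium channel of the endoplasmic reticulum, Hpf1 a cofactor of PARP1, and Usp24 and Znrf1 a deubiquitinase and a ubiquitin ligase. The Tmco1 region had a Tcf4 fold enrichment of 16.6 and 18.2 and the Hpf1 region one of 15.7 and 18.4, yet they changed by only −1.09 and −1.06. The Lpp, Usp24 and Znrf1 regions changed by −1.47, −1.505 and −1.97.

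By the deposited annotation, 247 of the 561 regions were intronic (44.0%), 222 distal intergenic (39.6%), 39 promoter (6.95%, 95% Wilson interval 5.13 to 9.36), 25 exonic and 20 in a 3′ UTR. Promoters made up 43.3% of all consensus regions. Leaving promoters aside, 247 of 522 regions were intronic and 222 intergenic. Of all regions outside promoters, 43.6% were intronic and 44.3% intergenic. Introns thus held more of the falling bound regions than intergenic sequence did, and over all regions outside promoters the order was the opposite. The median distance to a GENCODE start site was 11179 bp, 303 regions being more than 10 kb away.

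H3K27ac was found at fewer of these regions in Tcf4 cKO than in WT. It is a measure the rule did not use, and it came from other libraries. In WT, 62.7% and 57.8% of the 561 regions overlapped an H3K27ac peak in replicates 1 and 2, and in Tcf4 cKO 29.2% and 20.7%. Both Tcf4 cKO libraries lay below both WT libraries, with a mean of 60.2% ± 3.53 (SD, n = 2) in WT and 24.96% ± 6.05 (SD, n = 2) in Tcf4 cKO. The difference of −35.3 percentage points had p = 0.333 in an exact two-sided permutation test over libraries, which is the smallest p that 2 against 2 libraries allow, so no comparison of marks here could reach 0.05. No source says that the libraries came from separate animals, and the spread may be technical. In bulk samples, fewer cells of a type and less signal per cell cannot be told apart.

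Over all consensus regions the H3K27ac share went from 62.7% and 56.2% in WT to 57.5% and 50.4% in Tcf4 cKO, with overlapping libraries. The change at the Tcf4-bound falling regions was 29.8 percentage points more negative (p = 0.333, exact permutation over libraries, the smallest possible). At Tcf4-bound regions outside promoters whose accessibility held steady, with a change under 0.25 in size, the share was 82.1% and 74.8% in WT and 76.8% and 66.5% in Tcf4 cKO. Regions that fell without Tcf4 in both libraries went from 25.5% and 23.2% to 9.86% and 6.02%. That group is not free of Tcf4, since 302 of its regions held a Tcf4 peak in 1 library and 479 in neither. Acetylation was thus more common in WT at the bound falling regions than at the other falling regions. The bound ones were also more open in WT, with a median of 6.83 against 5.95. They were wider as well, with a median of 857 bp against 704 bp. The part of these differences in the contrast was not tested.

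**Figure D2:**
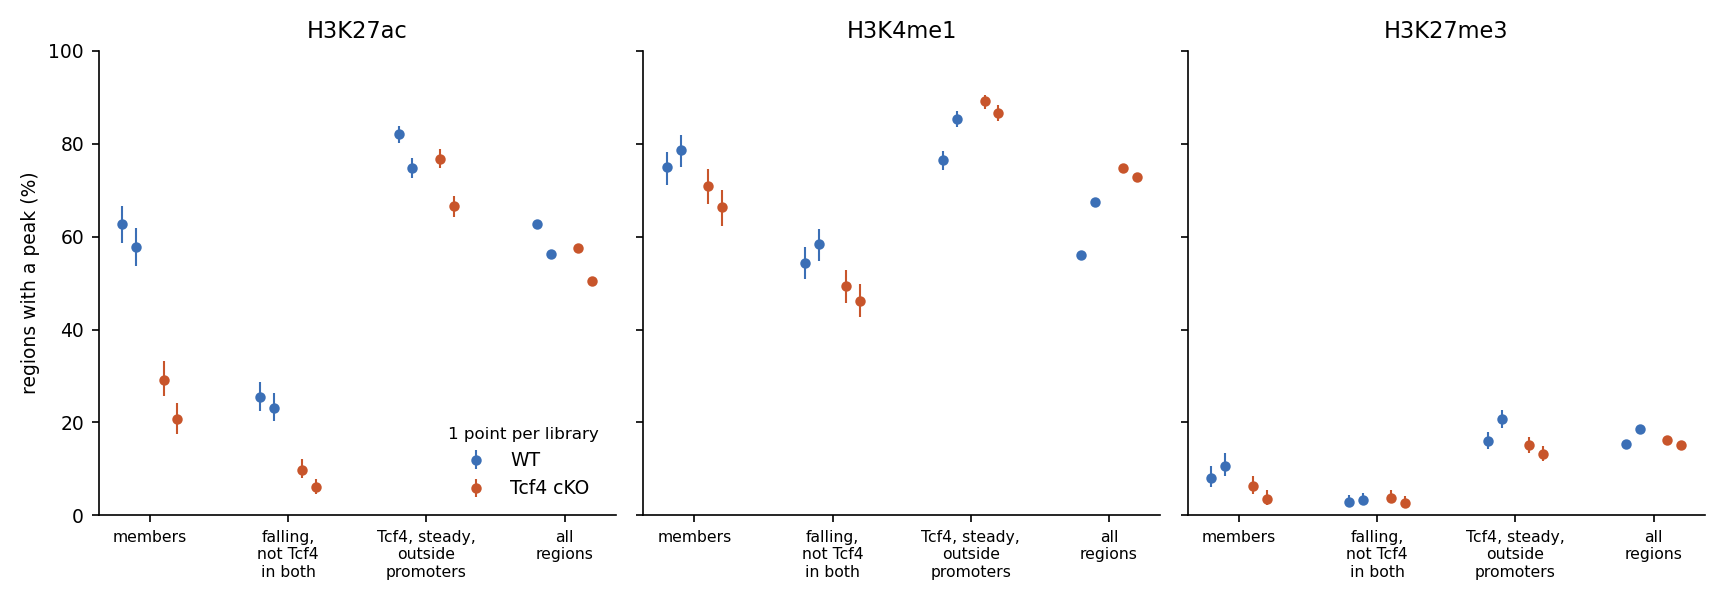
Share of regions that overlap a peak of each mark, 1 point per library with its 95% Wilson interval, for the 561 Tcf4-bound falling regions (members), 781 falling regions without Tcf4 in both libraries, 1668 steady Tcf4-bound regions outside promoters and all 32120 regions. H3K27ac shows the widest gap between WT and Tcf4 cKO at the members, and H3K4me1 is lower in Tcf4 cKO at both falling groups and higher over all regions.

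A region-by-region count gave the same direction, but it rests on the same H3K27ac peak lists as the shares and is no separate evidence. H3K27ac was lost, by the same definition, at 102 of the 561 regions (18.2%), against 3.55% of all consensus regions. The opposite pattern was found at 1 region, nearest to Exoc4, a subunit of the exocyst (0.178%, against 1.35% of all regions). By peak height, with 0 where no peak was listed, both Tcf4 cKO libraries lay below both WT libraries at 154 regions (27.5%, against 14.7%). They lay above both at 11 (1.96%, against 8.35%). The 154 include the 102 regions that lost the peak, and the 11 include the 1 with the opposite pattern. This count is therefore no separate evidence. At steady Tcf4-bound regions outside promoters the shares were 20.2% below and 10.4% above.

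The starting level of acetylation bears on these shares. Of the 248 regions with H3K27ac in both WT libraries, 102 had no peak in Tcf4 cKO (41.1%), 80 in 1 of them and 66 in both. The same loss was seen at 56 of 113 such falling regions without Tcf4 in both libraries (49.6%) and at 1141 of 16062 of all such regions (7.10%). Given acetylation in WT, its loss was therefore not more common at the Tcf4-bound falling regions than at the other falling regions. Of the 102 regions that lost H3K27ac, 61 kept H3K4me1 in all 4 libraries, 4 lost it in the same way and 2 held H3K27me3 in both Tcf4 cKO libraries.

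The named regions that lost H3K27ac with the largest falls lay in introns of F13a1, which encodes coagulation factor XIII subunit A, and of Gm28052 near Rnf8, a ubiquitin ligase of the DNA damage response, nearest to Gm25440, in Usp16, a deubiquitinase of histone H2A, and nearest to a gene without a symbol. They changed by −2.77, −2.63, −2.55, −2.502 and −2.497. The F13a1 region had an H3K27ac fold enrichment of 4.70 and 3.22 in WT and no listed peak in either Tcf4 cKO library. The Usp16 region also lost H3K4me1.

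H3K4me1 was found at fewer of these regions in Tcf4 cKO, while over all regions it was found at more. Its share was 74.9% and 78.6% in WT and 70.9% and 66.3% in Tcf4 cKO, with means of 76.7% ± 2.65 and 68.6% ± 3.28 (SD, n = 2) and a difference of −8.11 percentage points (p = 0.333, exact permutation over libraries). The libraries of the genotypes did not overlap, but with peaks of −log10 q of 5 or more alone the difference was −2.85 points and they did (p = 0.667, exact permutation). Over all consensus regions the share was 56.1% and 67.5% in WT and 74.7% and 72.8% in Tcf4 cKO, a difference of 11.99 points, again without overlap. The difference at the Tcf4-bound falling regions was thus 20.1 points below that over all regions (p = 0.333, exact permutation, the smallest possible).

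The number of H3K4me1 peaks also differed, from 51510 and 59526 in WT to 72790 and 65049 in Tcf4 cKO. With the 51510 strongest peaks taken from each library, the share at the Tcf4-bound falling regions was 74.9% and 75.04% in WT and 58.8% and 57.04% in Tcf4 cKO. All consensus regions then went from 56.1% and 62.6% to 62.9% and 64.8%. With equal numbers of peaks the gap between genotypes was wider at the bound falling regions and narrower over all regions. Falling regions without Tcf4 in both libraries behaved much like the bound ones, with 54.3% and 53.3% in WT and 38.8% and 38.3% in Tcf4 cKO.

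H3K4me1 was lost in this sense at 31 regions (5.53%, against 0.95% of all regions), and the opposite pattern at 10 (1.78%, against 5.42%). By peak height, 119 regions (21.2%, against 11.6%) had both Tcf4 cKO libraries below both WT libraries and 63 (11.2%, against 17.0%) had them above. The 119 include the 31 regions that lost the peak, and the 63 include the 10 with the opposite pattern. The 5 largest falls among the 31 lay at A630001G21Rik, nearest to Pkdcc, in Gm28052 near Rnf8, in Akirin1 and in Usp16. The A630001G21Rik region had an H3K4me1 fold enrichment of 4.87 and 4.49 in WT and no listed peak in Tcf4 cKO.

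H3K27me3 was rare at these regions in both genotypes. Its share was 8.02% and 10.7% in WT and 6.24% and 3.57% in Tcf4 cKO, a difference of −4.46 percentage points (p = 0.333, exact permutation over libraries). It was lost at 8 regions (1.43%, against 1.72% of all regions), and the opposite at 1, nearest to Gm25598 (0.178%, against 1.34%). The starting level differed, since 24 of the 561 regions held H3K27me3 in both WT libraries, against 3642 of all 32120 regions. Given the mark in both WT libraries, it was lost at 8 of those 24 and at 554 of those 3642. At falling regions without Tcf4 in both libraries the share was 2.94% and 3.33% in WT and 3.84% and 2.69% in Tcf4 cKO. By peak height, 10 regions (1.78%, against 4.43%) had both Tcf4 cKO libraries below both WT libraries. The 10 include the 8 regions that lost the peak. Over all regions the libraries of the genotypes overlapped, at 15.3% and 18.5% in WT and 16.2% and 15.2% in Tcf4 cKO. At steady Tcf4-bound regions outside promoters the difference was −4.23 points without overlap, within 0.23 points of that at the falling regions.

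Read together in WT, 180 regions carried both H3K4me1 and H3K27ac in both libraries without H3K27me3 (32.1%), the usual signature of an active enhancer, and 172 carried H3K4me1 alone (30.7%). No mark was found in both WT libraries at 130 regions (23.2%). Falling regions without Tcf4 in both libraries were less often doubly marked (86 of 781) and more often unmarked (51.6%). These shares were not tested against each other, since regions are not replicates.

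The H3K27ac and H3K4me1 shares in Tcf4 cKO were lower in classes with larger falls. In WT the H3K27ac share was lower only in the class of the largest falls. For falls from 1 to under 1.5, from 1.5 to under 2 and of 2 or more, the mean H3K27ac share in Tcf4 cKO was 29.2%, 19.2% and 10.5%. In WT it was 61.6%, 61.7% and 48.2%. H3K4me1 in Tcf4 cKO stood at 73.3%, 62.8% and 51.8% and in WT at 76.3%, 76.7% and 79.8%. The WT accessibility of these classes also differed, with medians of 6.99, 6.73 and 6.46. In Tcf4 cKO the medians were 5.77, 4.98 and 4.13. The classes are cut on the change that the rule used, of which Tcf4 cKO accessibility is a term, so they are a description only.

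**Figure D3:**
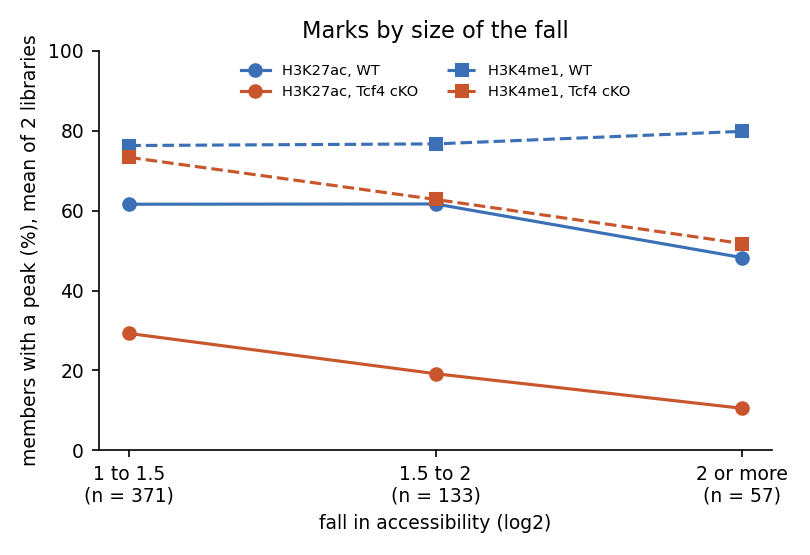
Share of regions with a peak, mean of 2 libraries, for H3K27ac and H3K4me1 in WT and Tcf4 cKO, by the fall in accessibility (371, 133 and 57 regions). The Tcf4 cKO lines go down from left to right while the WT line of H3K4me1 stays between 76.3% and 79.8%. The WT line of H3K27ac ends lower, at 48.2%.

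The sequence at the centre of these regions was rich in E-boxes. Sequence was not used by the rule. In the 151 bases around the region centre, CANNTG was found at 82.0% of the 561 regions (95% Wilson interval 78.6 to 85.0), searched on both strands. The share was 70.7% at falling regions without Tcf4 in both libraries, 55.8% at steady Tcf4-bound regions outside promoters, 58.5% at all regions outside promoters and 49.2% at all regions. Steady Tcf4-bound regions outside promoters thus had no higher share than all regions outside promoters. The share of all Tcf4-bound regions outside promoters was not counted.

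CAGCTG accounted for much of the excess. It was found at 38.3% of the regions (34.4 to 42.4), at 25.7% of falling regions without Tcf4 in both libraries (22.8 to 28.9), at 17.3% of steady Tcf4-bound regions outside promoters (15.5 to 19.2) and at 12.9% of all regions. CAGATG, read as CATCTG on the other strand, was found at 29.8% against 10.5% of all regions and 14.4% of those outside promoters. CACCTG, read as CAGGTG on the other strand, was found at 16.2% against 8.30% and 6.95%. At falling regions without Tcf4 in both libraries, CAGATG stood at 20.6% and CACCTG at 9.73%. The palindromes CACGTG (2.14% against 2.99%) and CATATG (2.85% against 1.46%) were rare, and CAAATG differed little from regions outside promoters (9.98% against 10.9%). These elements are all within CANNTG and overlap its count.

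Base composition moved with these groups. Mean GC content of the window was 49.2% at the 561 regions, 47.8% at falling regions without Tcf4 in both libraries, 54.4% at steady Tcf4-bound regions outside promoters and 56.9% at all regions. Within the interquartile GC range of the 561 regions, 45.0% to 53.0%, CAGCTG was found at 43.1% of them, 31.5% of falling regions without Tcf4 in both libraries, 14.5% of steady Tcf4-bound regions outside promoters and 14.7% of all regions.

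The elements were more frequent inside the regions than beside them. In the 151 bases around the strongest summit, CAGCTG was found at 36.7% of the 561 regions, and in a window of the same length centred 1000 bp to the right at 5.70%. For CANNTG the values were 77.9% and 54.7%. The outer window lies beyond most of the open regions, and the window at the region centre held both elements at slightly higher shares than the summit window, so the contrast is not particular to the summit. The mean number of E-boxes per window was 1.49 at the summit and 0.875 in the outer window. No E-box was found in the summit window of 124 regions (22.1%), 193 held 1, 244 held 2 or more and 53 held 2 or more CAGCTG.

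**Figure D4:**
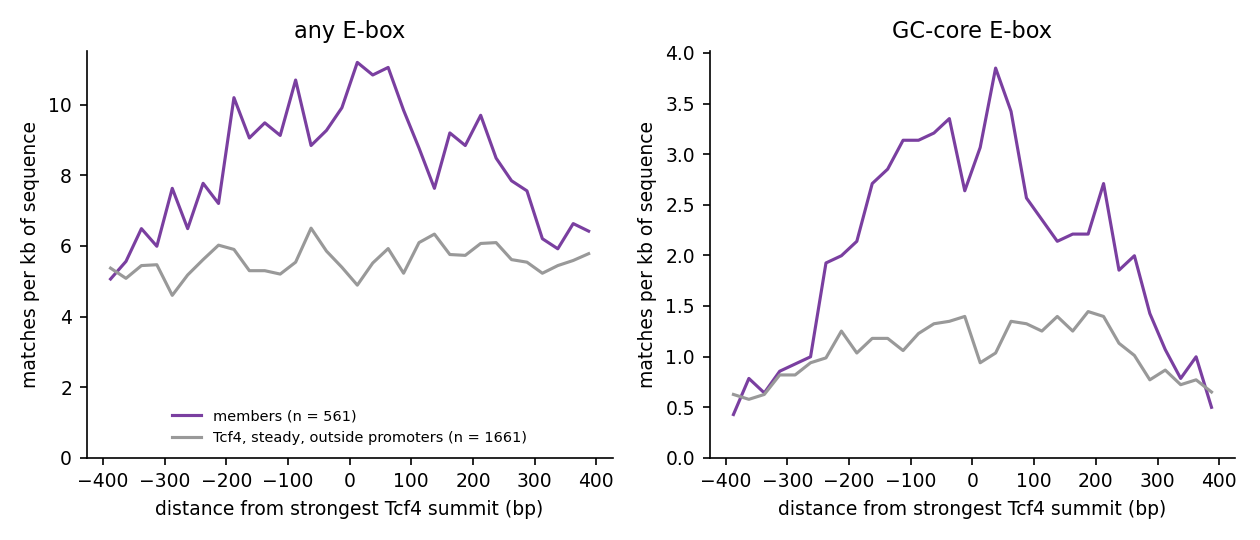
Matches per kb of sequence in 25 bp bins around the strongest Tcf4 summit, for any E-box (left) and for the E-box with a GC core (right), at the 561 regions and at 1661 steady Tcf4-bound regions outside promoters that have a summit inside. The GC-core element reaches 3.85 matches per kb near the summit of the members and 0.428 at the left edge, and stays under 1.5 in the steady regions.

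The size of the fall was set beside the presence of CAGCTG. In the summit window the element was found at 36.1% of regions with falls under 1.5, 36.1% with falls from 1.5 to under 2 and 42.1% of the 57 with falls of 2 or more. For CANNTG these shares were 78.2%, 73.7% and 86.0%. The 206 regions with it in the summit window had a median change of −1.36 and the other 355 one of −1.28. Their mean H3K27ac shares were 61.9% and 59.3% in WT and 24.5% and 25.2% in Tcf4 cKO. Tcf4 enrichment was alike as well, with medians of 6.08 and 6.08.

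Other elements were searched on both strands of the centre window as a comparison. The SOX-type elements ACAAAG and ACAATG were found at 18.4% and 12.3% of the regions, against 19.0% and 10.0% of all regions outside promoters. The NFI half-site TTGGCA was found at 8.56% against 12.2%, the homeodomain element TAATTA at 2.50% against 3.98%, and the AP-1 element TGANTCA at 5.17% against 5.04%. GGAATG, the TEAD-type element, was found at 6.95% against 8.55%. The promoter elements GGGCGG and CCGGAA were found at 3.21% and 2.50%, against 7.26% and 3.08% of all regions outside promoters and 21.4% and 6.75% of all regions. A match is a description of these letters and not of binding.

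The 561 regions were spread over many genes. They had 530 different named nearest genes, of which 21 had 2 regions and 1, Sh3bp4, had 3. Within 50 kb of each other lay 29 regions, in 14 groups. The sorted lineage was checked at marker promoters: WT values were 9.12 at Nkx2-1, 8.95 at Olig2, 8.57 at Olig1, 8.53 at Pdgfra, 7.82 at Gad1, 7.75 at Dlx2 and 6.53 at Dlx1. Markers of other cell types had values of 6.42 at Emx1, 6.72 at P2ry12 and 6.19 at Cldn5, so Dlx1 lay at their level. No promoter region was listed for Lhx6, Gad2, Sst, Sox10 or Cspg4, nor for Neurod2, Neurod6, Tbr1, Cx3cr1, Aif1 or Pecam1.

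Sh3bp4, which encodes a regulator of endocytosis, had 1 region in an intron and 2 beyond it on chromosome 1. The intronic region changed from 8.003 in WT to 6.06 in Tcf4 cKO, the others from 7.86 to 5.99 and from 8.72 to 7.65. The first 2 of these values fell by more than most regions did, with changes of −1.94 and −1.87, and the remaining change was −1.07. H3K27ac was lost at this last region, with a fold enrichment of 2.51 and 2.70 in WT and no listed peak in Tcf4 cKO. The region that changed by −1.87 gained H3K4me1 peaks in both Tcf4 cKO libraries.

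The largest falls are named by the nearest gene of the deposited annotation, which can lie far away. The A630001G21Rik region went from 6.07 to 2.49, which is 11.96-fold lower, with an ATAC-seq fold enrichment of 7.72 and 9.22 in WT and no listed peak in Tcf4 cKO. The region that the deposited annotation places upstream of Tspan9, a tetraspanin gene, went from 5.74 to 2.63. It lay 23.5 kb from the annotated start and 169 bp from a GENCODE start. The region assigned to Pkdcc, which encodes a secreted tyrosine kinase, went from 5.29 to 2.34 and lay 313 kb from that gene's annotated start. Neither region had a listed ATAC-seq peak in Tcf4 cKO. Next came regions in introns of Vps13b (−2.80) and F13a1 (−2.77), at the promoter of Cspp1, a centrosomal protein gene (−2.67), near Iws1, a transcription elongation factor gene (−2.64), in Gm28052 near Rnf8 (−2.63), 147 kb from Gm22283 (−2.62), 4.50 kb from Gm25325 (−2.61), in Akirin1 (−2.57) and 368 kb from Gm25440 (−2.55). Of these 12 regions, 9 had no ATAC-seq peak in either Tcf4 cKO library.

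Among the gene lists, only the oligodendrocyte lineage list had regions by nearest gene. It holds 32 genes, of which 29 were nearest to 123 consensus regions (0.383% of all), and 5 of the 561 regions (0.891%) belonged to it. The lists of astrocyte genes (81 consensus regions), interneuron genes (62), projection neuron genes (9), microglial genes (5), endothelial genes (8), bHLH partners with Id and Hes genes (63), Notch genes (45), Wnt genes (59) and adhesion and guidance genes (71) had 0. By the gene that holds the region rather than the nearest start, 1 region each lay in Itpr2, Tcf4 and Rnf43, with changes of −1.01, −1.09 and −1.15. Tcf4 is itself the floxed gene in Tcf4 cKO, and whether its region lies within the deleted stretch was not tested. The share of all regions held by list genes was not counted. With so few regions per list, the difference between lists was not tested.

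The Zfp488 region lay 18.2 kb upstream of the annotated start of a transcription factor gene that promotes oligodendrocyte differentiation. It went from 7.41 in WT to 5.94 in Tcf4 cKO. Its ATAC-seq fold enrichment was 8.82 and 10.0 in WT and 6.62 and 7.60 in Tcf4 cKO, and its Tcf4 fold enrichment was 4.505 and 5.19. H3K27ac was listed in 1 library of each genotype, at 4.64 in WT and 4.10 in Tcf4 cKO.

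Enpp6, a choline phosphodiesterase gene that marks newly forming oligodendrocytes, had 2 intronic regions. The distal one went from 6.63 to 5.21, with an ATAC-seq fold enrichment of 7.39 and 8.47 in WT and 5.25 and 6.86 in Tcf4 cKO. The proximal one went from 7.20 to 6.16, with 10.1 and 10.2 in WT and 9.77 and 9.20 in Tcf4 cKO. Both kept H3K4me1 in all 4 libraries. The distal region had H3K27ac in 1 WT library and in both Tcf4 cKO libraries, the proximal region in 1 WT library and in no Tcf4 cKO library.

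Bcas1 marks newly formed and myelinating oligodendrocytes. Its region, annotated as promoter and overlapping a coding exon, went from 8.56 to 7.44, with an ATAC-seq fold enrichment of 5.77 and 4.87 in WT and 4.04 and 3.97 in Tcf4 cKO. H3K27ac was present in all 4 libraries there. Myrf encodes the transcription factor that activates myelin genes. Its intronic region went from 6.81 to 5.79, with an ATAC-seq fold enrichment of 6.80 and 6.30 in WT and 4.93 and 3.73 in Tcf4 cKO. H3K27ac there was 2.75 and 3.15 in WT and was not listed in either Tcf4 cKO library.

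**Figure D5:**
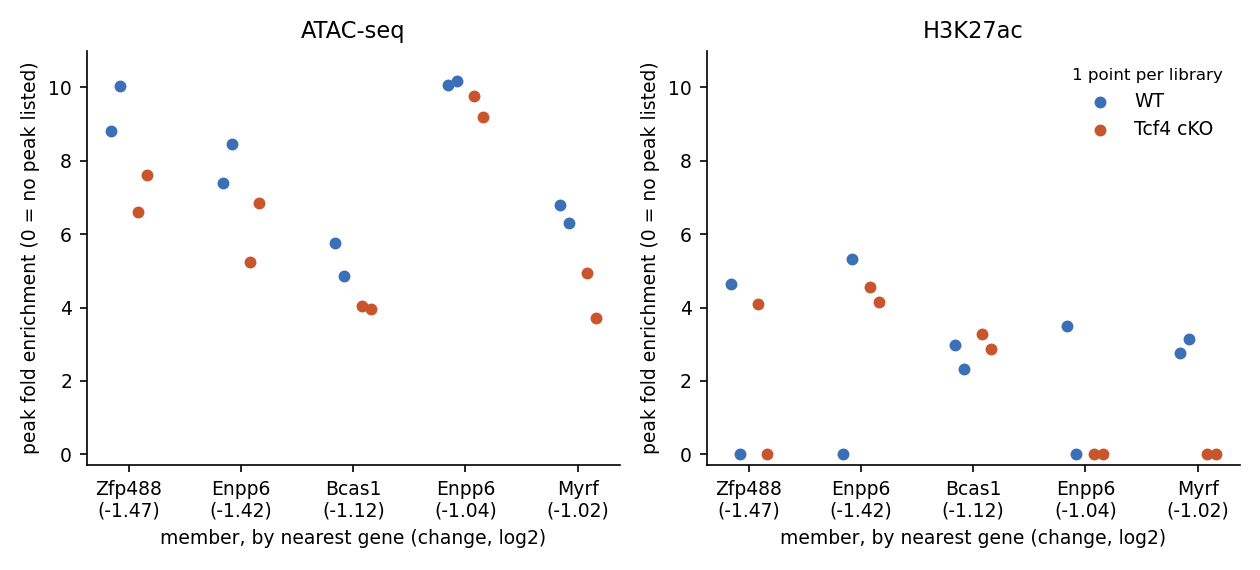
Fold enrichment over the local background of the ATAC-seq peak (left) and the H3K27ac peak (right) at the 5 regions nearest to oligodendrocyte lineage list genes, 1 point per library, 0 where no peak is listed, with the change in mean ATAC-seq value in brackets. The ATAC-seq points show the libraries on which the regions were selected, and H3K27ac is lost only at Myrf.

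Counting each list gene with a start site within 100 kb, 13 of the 561 regions (2.32%) lay near 11 oligodendrocyte lineage genes, against 254 of all consensus regions (0.791%). Olig1 and Olig2, bHLH genes of the oligodendrocyte lineage, shared 2 such regions. The one nearest to Gm15966 went from 10.15 to 9.09, the highest WT value among the 561 regions, and it lay 35.2 kb from Olig1. It also lost H3K27me3, by the definition used for the other marks. The other went from 6.53 to 5.53. A region 5.49 kb from Cnp, a myelin enzyme gene, changed by −1.35 and one 45.2 kb from Opalin, a gene of mature oligodendrocytes, by −1.81. Tcf4-bound regions of the list that missed the threshold included those nearest to Sox6 (−0.89), Gpr17 (−0.86) and Tnr (−0.81).

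A few further regions are named here outside the rule for naming, after their values were seen, and they stand for no group. A region upstream of Rxrg, a retinoid X receptor gene, went from 7.47 to 5.10 and lost H3K27ac, which had been 4.47 and 5.46 in WT. The Sirt2 region went from 6.93 to 4.98, with no listed ATAC-seq peak in Tcf4 cKO. Regions near Bcan, which encodes the proteoglycan brevican, and Neu4, a sialidase gene, changed by −1.10 and −1.26, and H3K27ac was lost at the former but present in all 4 libraries at the latter. Regions in Tns3 and upstream of Bmp4 changed by −1.14 and −1.07, and a pair of regions near Smad3 by −1.86 and −1.65.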

How the data were processed

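ATAC-seq (2 WT and 2 Tcf4 cKO libraries), Cut&Tag for H3K4me1, H3K27ac and H3K27me3 (2 libraries per genotype and mark) and anti-Flag Cut&Tag in Tcf4-tag mice (2 libraries) were used. Genotype and replicate came from the labels. Per the study's methods and the submitters' processing notes, the authors trimmed reads with Trim Galore, aligned them to mm10 with Bowtie2, discarded duplicates and used MACS2 to call peaks per library (broad peaks for H3K27me3). Each deposited peak has a −log10 q-value and its fold enrichment, the ratio of signal to local background. The deposited consensus table, made by the authors with DiffBind and DESeq2, gives the mean log2 normalised reads per genotype and a ChIPseeker annotation with promoters within 1 kb. Its fold change, p-value and FDR columns hold the authors' own comparison and were not used, nor were the footprint table and the single-cell libraries. No column of per-sample values was left unmapped (0).

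Overlaps of 1 bp or more were found with bedtools 2.31.1, and a region's fold enrichment in a library is that of its strongest overlapping peak, or 0 with none. Shares carry 95% Wilson intervals, which cover the counting of regions only. The read depth is unknown. Peak lists held 54162 to 72308 ATAC-seq, 22026 to 28413 H3K27ac, 51510 to 72790 H3K4me1 and 15085 to 19182 H3K27me3 peaks. Mark shares were compared between genotypes by an exact two-sided permutation of the 4 libraries. Sequences were read from the RefSeq FASTA of GRCm38.p6, the build of mm10, and start sites from GENCODE M21. Motifs were counted with overlaps. Scripts were tested on simulated regions with known overlaps and motifs. The regions and gene lists were chosen with earlier results of these data known. Named were the 12 largest falls, every region whose nearest gene is on a list, genes with 3 or more regions and the 5 highest Tcf4 enrichments. Also named were up to 5 regions each that lost H3K27ac or H3K4me1 in both libraries, and the 3 regions on each side of the threshold. Rxrg, Sirt2, Bcan, Neu4, Tns3, Bmp4, Smad3, list genes within 100 kb or just past the threshold, and regions that make up a count of 1 were named outside this rule, after their values were seen. Alternatives changed the Tcf4 overlap, the size of the fall, peak thresholds, windows, gene assignment and the libraries. Replicate numbers are shared by WT and Tcf4 cKO, but no source says that they mark a litter or batch.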

Additional observations from a re-analysis of the deposited data

Results flagged for a closer look

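The H3K4me1 share went in opposite directions at the Tcf4-bound falling regions and over all consensus regions. Both Tcf4 cKO libraries lay below both WT libraries at the former and above them over the latter, and the change at the falling regions was lower by 20.1 percentage points (−20.1, exact permutation over libraries, p = 0.333, the smallest that 2 against 2 libraries allow). The difference was −21.5 with equal numbers of peaks per library, −20.2 with 50% cover and −16.0 with peaks of −log10 q of 5 or more. It was −23.9 to −16.3 with 1 library left out. These alternatives were added after seeing the data. Tcf4 cKO libraries held more H3K4me1 peaks than WT libraries, and the part of this in the difference beyond the equal-peak value was not tested. Falling regions without Tcf4 in both libraries changed by −8.51 points, within 0.404 points of the Tcf4-bound ones.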

How the results depend on the processing

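The number of regions depended on the thresholds. A fall of 0.5 gave 1611 regions, one of 1.5 gave 190, and Tcf4 peaks with a −log10 q of 5 or more gave 369. Centring the change on the median of all regions, −0.10, gave 461, and Tcf4 cover of 30% gave 559. With 1 Tcf4-tag library left out the number was 603 to 821. No mark's difference changed sign under any alternative run. The H3K27ac difference ran from −39.6 to −31.0 percentage points with 1 library left out and was −20.7 with peaks of −log10 q of 5 or more, −28.3 with 50% cover and −29.8 with equal numbers of peaks. The H3K4me1 difference ran from −10.4 to −5.79 with 1 library left out, was −2.85 with peaks of −log10 q of 5 or more, where the libraries overlapped (exact permutation p = 0.667), and −17.0 with equal numbers of peaks. The H3K27me3 difference ran from −5.79 to −3.12, and was −0.891 with the stricter peaks. With a replicate block, pairing libraries by number, the differences stayed at −35.3, −8.11 and −4.46 points, with an exact p of 0.5 each, the smallest that 2 pairs allow. In a window of 150 bp to each side, CAGCTG was found at 61.0% and CANNTG at 96.3%, since the window holds more sequence. Around the Tcf4 summit CANNTG stood at 77.9%, and in the middle of the GC range, an alternative chosen after seeing the data, CAGCTG stood at 43.1%. The cause was not tested. Promoters made up 9.80% by GENCODE starts within 1 kb. The oligodendrocyte lineage list had 13 regions by starts within 100 kb and 17 with a fall of 0.5, against 5. With 2 libraries per group and no read counts, the depth limits neither interval nor call in a way that can be given here.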
